A study of Mus musculus with 8 samples.

Results

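The 49 genes described here encode ribosome biogenesis factors and were chosen by name, from a list of such genes, among 19818 genes measured in mouse CD8+ T cells. They comprise 6 genes of RNA polymerase I (Pol I) transcription, 7 of the small nucleolar ribonucleoprotein particles (snoRNPs), 15 of the small subunit pathway, 17 of the large subunit pathway and 4 multifunctional nucleolar proteins. All 49 were found under their listed symbol on the array, and each was represented by its brightest probe over the 7 conditions. All 49 were well above background on all 8 arrays.

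The cells came from the spleen of C57BL6 mice that carry the OT-I transgene, which encodes a T cell receptor (TCR) for the ovalbumin peptide SIINFEKL on H-2Kb. They were magnetically enriched to a purity of 90 to 97% by flow cytometry and profiled on single-colour Agilent arrays. The arrays held untreated cells (replicates 1 and 2), cells given only interferon beta (IFNβ), for 2 h or 7 h, cells given only TCR stimulation with streptamers that present SIINFEKL, for 1 h or 6 h, and IFNβ for 1 h with TCR stimulation for 1 h or for 6 h. The question, from the series title, is what type I interferons change in T cells. Every cell carried the same transgenic receptor, the sex, age and number of mice were not given in the sources used here, and each treated condition had 1 array.

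Ribosomes are assembled in the nucleolus, where Pol I transcribes the ribosomal DNA into a long precursor RNA. SnoRNPs guide methylation and pseudouridylation of the precursor, and assembly factors, GTPases, nucleases and export factors then turn it into the small and large subunits. Resting T cells make few ribosomes, and antigen stimulation is known to switch them to rapid growth, in which MYC, a transcription factor that binds DNA with MAX, activates many biogenesis genes.

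The promoters of the members were read for the E-box CACGTG, the preferred site of MYC with MAX, because these genes moved together after stimulation. RefSeq promoter windows (build GRCm38.p6), running from 250 bases before to 50 after the start, were matched for 43 of the 49 members, and Bop1, Fbl, Gnl2, Npm1, Rrp12 and Rrs1 had no entry. CACGTG, which reads alike on both strands, lay in 11 of these 43 genes (25.6%) and in 8.09% of all 27025 genes with a window. It stood before the start in Imp4 (121 bases), Nop2 (60 bases), Rrn3 (215 and 48 bases) and Utp18 (20 bases), and within the first 50 bases after it in Grwd1, Nle1, Pes1, Pno1, Tsr1, Utp20 and Wdr43. The stretch of 150 bases before the start is shown for the first set, and for Grwd1 and Nolc1, the largest risers with a single window, with CACGTG and its variant CACGCG (in either strand) in capitals.
Imp4 (chr1:34439679-34439828, plus strand): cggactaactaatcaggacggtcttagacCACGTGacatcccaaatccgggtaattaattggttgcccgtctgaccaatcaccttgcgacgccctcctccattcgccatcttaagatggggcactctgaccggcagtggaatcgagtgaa
Nop2 (chr6:125131733-125131882, plus strand): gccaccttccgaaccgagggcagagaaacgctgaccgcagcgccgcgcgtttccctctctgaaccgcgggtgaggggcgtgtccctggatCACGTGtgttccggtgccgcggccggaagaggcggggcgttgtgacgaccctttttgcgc
Rrn3 (chr16:13780549-13780698, plus strand): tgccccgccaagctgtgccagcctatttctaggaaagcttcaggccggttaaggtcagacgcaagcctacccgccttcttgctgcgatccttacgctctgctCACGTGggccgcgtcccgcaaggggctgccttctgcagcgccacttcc
Utp18 (chr11:93885767-93885916, minus strand): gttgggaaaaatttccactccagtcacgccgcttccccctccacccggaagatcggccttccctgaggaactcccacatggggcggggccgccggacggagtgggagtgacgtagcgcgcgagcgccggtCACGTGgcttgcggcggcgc
Grwd1 (chr7:45830790-45830939, minus strand): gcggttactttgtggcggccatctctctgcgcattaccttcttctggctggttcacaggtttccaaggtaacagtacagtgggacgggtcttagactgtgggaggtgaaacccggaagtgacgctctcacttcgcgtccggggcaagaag
Nolc1 (chr19:46075697-46075846, plus strand): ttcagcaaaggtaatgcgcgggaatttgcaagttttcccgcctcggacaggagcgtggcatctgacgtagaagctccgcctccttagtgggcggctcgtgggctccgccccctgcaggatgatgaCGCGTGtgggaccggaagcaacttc

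The variant CACGCG, searched on both strands, was held by 11 of 43 members (25.6%) against 10.5% of all genes. Other motifs were searched on both strands for comparison. CCGGAAG, an ETS family motif, was in 34.9% of members against 9.93% of all genes, and GGGCGG, the GC box, in 67.4% against 38.2%. ATTGG, the reverse of CCAAT, was in 32.6% against 41.1%, and CGCCATCTT, a YY1 motif, in 6.98% against 1.64%. The core of the interferon-stimulated response element was in 2.33% (Nip7 alone) against 3.99%. Motifs were counted separately and may share bases. A match is a description of letters in this window, and binding was not measured. All genes with a window were not matched to the members for base composition or expression. The median fitted log2 change after 6 h of TCR stimulation was 3.24 for the 11 members with CACGTG and 3.39 for the 32 without it, and after 1 h it was 1.45 and 0.86.

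Before the results, some facts on the arrays limit them. The 75th percentile of the processed signal ranged from 807.4 to 1240.8 intensity units, between 26065 and 29533 of 43379 non-control spots per array were well above background, and no spot was saturated. The untreated arrays differed over 152 repeated probes by a robust SD of 0.0349 log2, against 0.0351 from spot noise, and by a plain SD of 0.0687 against 0.0541. They were counted as 1 sample, a choice on which the TCR 1 h count below depends (over the members their log2 difference ran from -0.23 to 0.12). The deposited value table and scanner files give the arrays for TCR 1 h and IFNβ with TCR 1 h opposite identities, each column an exact multiple of the other's file, and the value table's naming was followed. Of 10 CD8 T cell markers 9 were measured, Cd8a, Cd8b1 and Cd3e among them, and were well above background on all 8 arrays (Trac was not measured). In bulk RNA, fewer cells of a type and less RNA per cell cannot be told apart. Signals below are scaled so that each array's 75th percentile is 1500, they are compared only within a probe, and folds or log2 changes come from a limma fit over 7 samples with terms for IFNβ, TCR 1 h and TCR 6 h unless single arrays are named.

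After 6 h of TCR stimulation every member rose. All 49 passed the threshold (adjusted p under 0.05 over all genes, 2 arrays with TCR 6 h against 3 samples without TCR), against 22.3% of the 19817 genes tested that passed in this direction. The median fitted log2 change of the members was 3.30, a 9.83-fold rise, while the median of all genes was 0.05. The members ranged from 1.78 for Ubtf to 4.74 for Grwd1. Between single arrays the member median rise was 7.96-fold from untreated to TCR 6 h, and 12-fold from IFNβ 7 h to IFNβ with TCR 6 h. For all 49 members both arrays with TCR 6 h lay above every other condition, which held for 29.1% of all genes. Of 8939 genes called in either direction 4419 were higher. With arrays scaled to their median these were 5974 of 9484, the median gene then stood at 0.38, and the member median was 3.64. The map of signals by gene and array shows each value.

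**Figure D1:**
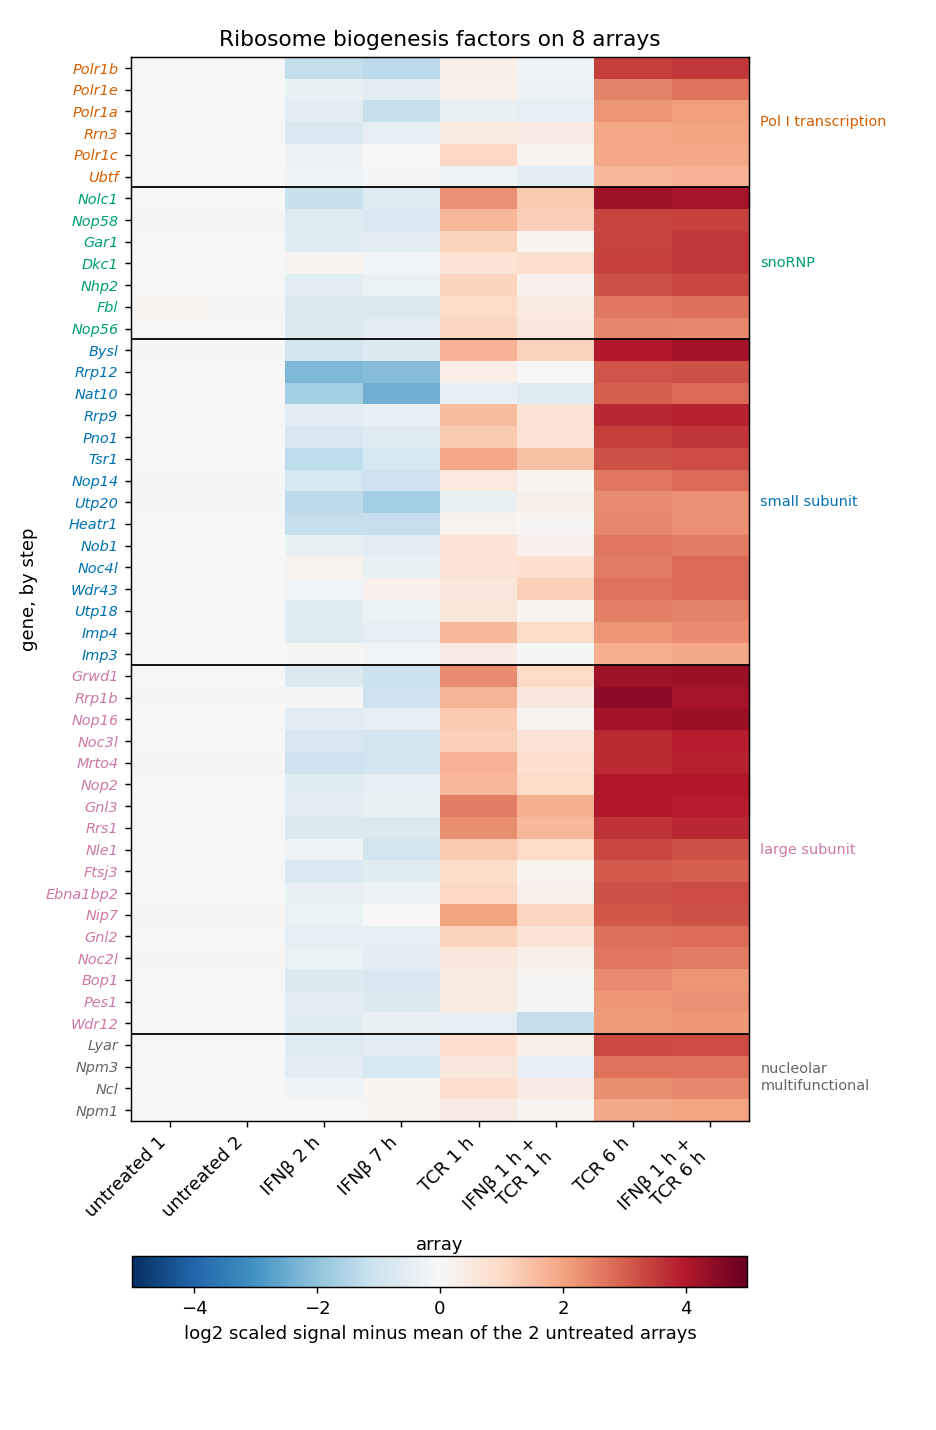
Colour gives each member's log2 scaled signal minus the mean of the 2 untreated arrays, with genes in rows by step (ordered by the fitted TCR 6 h change) and the 8 arrays in columns. Both columns with TCR 6 h are red in all 49 rows, the columns with TCR 1 h are paler and mixed, and most rows of the IFNβ columns are blue.

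In the Pol I machinery the median change at 6 h was 2.49 log2, and all 6 members rose. Polr1b, the second-largest subunit of Pol I (probe on chromosome 2, 128951870 to 128951929 in mm9), had a scaled signal of 2705 and 2845 in untreated cells, 1212 and 1121 with IFNβ for 2 h and 7 h, 3406 and 2448 at TCR 1 h without and with IFNβ, and 30575 and 32226 at TCR 6 h without and with IFNβ. The arrays with TCR 6 h stood apart from all others, and those with IFNβ alone were the lowest. Polr1b rose 18.8-fold (log2 4.23 ± 0.34 SE, adjusted p = 0.00047). Polr1e, a Pol I subunit that helps bind initiation factors, had 1800 and 1871 untreated, 1405 and 1285 with IFNβ, 2214 and 1502 at TCR 1 h, and 10356 and 12015 at TCR 6 h, a rise of 7.24-fold (2.86 ± 0.27, adjusted p = 0.00061). Polr1a, the largest catalytic subunit, rose 6.26-fold and Polr1c, a subunit shared with Pol III, 3.90-fold.

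The initiation factors of Pol I rose less than its subunit Polr1b in the fit, but by its brightest probe Rrn3 rose more than the subunit Polr1c. Another probe of Rrn3, from a cDNA clone, gave 0.51 log2 at TCR 6 h, below the 1.96 of Polr1c. Rrn3, which joins Pol I to its promoter and is regulated by growth signals, had 3975 and 4098 in untreated cells, 2358 and 2976 with IFNβ, 5547 and 5308 at TCR 1 h, and 15240 and 16395 at TCR 6 h. It rose 5.05-fold (log2 2.34 ± 0.28, adjusted p = 0.0012). Ubtf, the upstream binding factor of ribosomal DNA, had 2779 and 2742 in untreated cells, 2389 and 2563 with IFNβ, 2359 and 1854 at TCR 1 h, and 8701 and 9243 at TCR 6 h. Its rise was 3.44-fold (1.78 ± 0.23, adjusted p = 0.0017), and both arrays with TCR 1 h were below untreated, at a fitted -0.32 that did not pass (adjusted p = 0.46). The differences between Rrn3, Ubtf, Polr1b and Polr1c were not tested.

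The 7 snoRNP genes had a median change of 3.48 log2 at 6 h. Nolc1, a nucleolar phosphoprotein that chaperones snoRNPs (chromosome 19, 46157702 to 46157761 in mm9), had 3560 and 3540 in untreated cells, 1632 and 2245 with IFNβ, 17526 and 8830 at TCR 1 h, and 66687 and 62269 at TCR 6 h. The order from IFNβ alone to TCR 6 h had no overlap between conditions with and without TCR. Nolc1 rose 25.3-fold (4.66 ± 0.31, adjusted p = 0.00037). Nop58, a core protein of the methylation-guiding box C/D particles, had 7894 and 7406 untreated, 4863 and 4564 with IFNβ, 24163 and 18135 at TCR 1 h, and 78540 and 81268 at TCR 6 h, and rose 13.8-fold (3.79 ± 0.26, adjusted p = 0.00039).

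The other box C/D proteins rose by less in the fit. Fbl, the methyltransferase fibrillarin, had 46030 and 39137 untreated, 26452 and 25752 with IFNβ, 85765 and 58895 at TCR 1 h, and 261727 and 283901 at TCR 6 h, an 8.47-fold rise (3.08 ± 0.27, adjusted p = 0.00054). Nop56 had 40294 and 40685 untreated, 24377 and 27385 with IFNβ, 84708 and 60182 at TCR 1 h, and 220824 and 213135 at TCR 6 h, a 6.88-fold rise. Among the box H/ACA proteins, which guide pseudouridylation, Dkc1, the pseudouridine synthase dyskerin, had 2093 and 2057 untreated, 2312 and 1873 with IFNβ, 3351 and 3766 at TCR 1 h, and 21887 and 24011 at TCR 6 h. Dkc1 rose 11.1-fold (3.48 ± 0.23, adjusted p = 0.00037), and with Noc4l and Imp3 it was 1 of 3 members above untreated on the array with IFNβ for 2 h. Its partners Gar1 and Nhp2 rose 13.4-fold and 11.1-fold.

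The 15 small subunit factors rose with a median of 3.24 log2. Bysl, a factor of 40S precursor maturation (chromosome 17), had 2274 and 2047 in untreated cells, 1134 and 1347 with IFNβ, 7131 and 4786 at TCR 1 h, and 34161 and 38259 at TCR 6 h, and rose 23.1-fold (4.53 ± 0.30, adjusted p = 0.00037). Rrp12, a factor of pre-40S processing and export, had 838 and 829 untreated, 176 and 187 with IFNβ, 1072 and 815 at TCR 1 h, and 7281 and 7502 at TCR 6 h. In the fit it rose 21.9-fold, with the largest SE of the 49 members (4.45 ± 0.52, adjusted p = 0.0012). Between single arrays Rrp12 rose 8.74-fold from untreated to TCR 6 h, and 40.1-fold from IFNβ 7 h to IFNβ with TCR 6 h. Its level fell furthest below untreated on the array with IFNβ for 2 h, and the values on the arrays with TCR 1 h were close to untreated.

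Nat10, the acetyltransferase of 18S ribosomal RNA, had 2428 and 2532 in untreated cells, 755 and 473 with IFNβ, 1867 and 1587 at TCR 1 h, and 19725 and 17451 at TCR 6 h. In the fit it rose 17.3-fold (4.11 ± 0.51, adjusted p = 0.0015), although both arrays with TCR 1 h were below untreated. Between single arrays Nat10 rose 7.96-fold from untreated to TCR 6 h, and 36.9-fold from IFNβ 7 h to IFNβ with TCR 6 h. Imp3, a protein of the U3 snoRNP that makes early cuts of the precursor, had 24217 and 23614 untreated, 24618 and 21993 with IFNβ, 32045 and 22408 at TCR 1 h, and 83967 and 89881 at TCR 6 h. It had the smallest rise of this step, 3.64-fold (1.86 ± 0.25, adjusted p = 0.0019). Its U3 partner Imp4 rose 6.04-fold, and Rrp9, another U3 protein, rose 16.5-fold.

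Late and early factors of this step both rose. Nob1, the nuclease that makes the mature end of 18S RNA, rose 7.12-fold and its partner Pno1 15.2-fold, and Tsr1, a GTPase-like factor of the late pre-40S particle, 14.2-fold. Of the early small subunit processome, Heatr1 rose 8.19-fold, Utp20 9.42-fold, Utp18 6.72-fold, Wdr43 6.95-fold, Nop14 9.83-fold and Noc4l 6.96-fold.

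The 17 large subunit factors rose with a median of 3.58 log2. Grwd1, a chaperone of a large subunit ribosomal protein (chromosome 7), had 1862 and 1820 in untreated cells, 1122 and 869 with IFNβ, 9574 and 3721 at TCR 1 h, and 34380 and 36406 at TCR 6 h, and its rise of 26.7-fold was the largest of the 49 (4.74 ± 0.36, adjusted p = 0.00044). Rrp1b, a nucleolar protein of pre-rRNA processing, had 844 and 897 untreated, 814 and 426 with IFNβ, 2791 and 1285 at TCR 1 h, and 19524 and 15294 at TCR 6 h, and rose 23.9-fold (4.58 ± 0.36, adjusted p = 0.00045). Within each pair with TCR, the array with IFNβ was the lower one for Rrp1b.

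Bop1, Pes1 and Wdr12, which form the PeBoW complex of 28S and 5.8S RNA maturation, were the smallest risers of the large subunit step. Wdr12 had 10339 and 10232 in untreated cells, 6788 and 7996 with IFNβ, 7559 and 4510 at TCR 1 h, and 44668 and 46286 at TCR 6 h. It rose 5.27-fold at 6 h (2.40 ± 0.27, adjusted p = 0.0010) and was below untreated on both arrays with TCR 1 h, at a fitted -0.56 that did not pass (adjusted p = 0.27). All 3 of its probes gave an estimate below 0 at TCR 1 h. Bop1 rose 6.54-fold and Pes1 5.97-fold at 6 h. Nop16 rose 22.2-fold, Noc3l 20.7-fold, Mrto4 20.5-fold, Nop2, a methyltransferase of 28S RNA, 19.6-fold, and the GTPase Gnl3, also called nucleostemin, 18.2-fold. The rest of the step, Rrs1, Nle1, Ftsj3, Ebna1bp2, Nip7, Gnl2 and Noc2l, rose between 7.42-fold and 17.0-fold.

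The abundant multifunctional nucleolar proteins had a median of 2.72 log2. Npm1, nucleophosmin, had 92643 and 91529 in untreated cells, 90174 and 97282 with IFNβ, 121138 and 102188 at TCR 1 h, and 339940 and 357300 at TCR 6 h, a rise of 3.72-fold (1.90 ± 0.23, adjusted p = 0.0013). Ncl, nucleolin, had 79998 and 82257 untreated, 71989 and 88252 with IFNβ, 140972 and 109155 at TCR 1 h, and 402628 and 429546 at TCR 6 h, a rise of 5.13-fold (2.36 ± 0.24, adjusted p = 0.00080). For both genes the arrays with IFNβ alone lay on either side of untreated. Npm3, a nucleophosmin relative, had 17915 and 18455 untreated, 12234 and 9912 with IFNβ, 26940 and 13588 at TCR 1 h, and 118100 and 117887 at TCR 6 h, and rose 8.47-fold. Lyar, a zinc finger protein of the nucleolus, had 5456 and 5504 untreated, 3540 and 3734 with IFNβ, 9723 and 6917 at TCR 1 h, and 53852 and 52109 at TCR 6 h, and rose 12.1-fold.

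Other probes of the members bear on these values. More than 1 probe was kept for 21 members, all of them had every probe above 0 for TCR 6 h, and for 14 the probes of a gene spanned less than 1 log2. The widest span was that of Rrp1b, whose 3 probes for a RefSeq transcript gave 4.50, 4.59 and 4.58 while a probe from a cDNA clone gave 0.29. The next widest were Ebna1bp2 (1.476 and 3.374), Heatr1 (from 1.14, for a probe well above background on 2 arrays, to 3.03) and Rrn3, whose probe from a cDNA clone gave 0.51 against 2.34. Spans of just over 1 were seen for Ncl, Nip7 and Nolc1. At TCR 1 h the widest spans were 1.59 log2 for Utp18, 1.18 for Rrp1b and 1.11 for Heatr1. The Utp18 probes gave 0.60 (the brightest) and 2.18 at TCR 1 h, so 1 h estimates also depend on the probe chosen. The brightest Rrp1b probe and its discordant clone probe are shown, as oligonucleotides for 1 member that gave 4.58 and 0.29 at TCR 6 h.
Rrp1b probe from the RefSeq transcript (chr17:32193829-32193888 in mm9): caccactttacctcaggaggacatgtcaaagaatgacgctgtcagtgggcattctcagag
Rrp1b probe from the cDNA clone (chr17:32202739-32202798 in mm9): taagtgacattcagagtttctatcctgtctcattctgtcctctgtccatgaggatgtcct

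After 1 h of TCR stimulation a subset had already risen. Of the 49 members 12 passed, all higher (2 arrays against 3 samples), where 2.57% of 19817 genes passed in this direction, and the median log2 change was 0.88 against -0.05 for all genes. An unadjusted p under 0.05 was reached by 37 members and by 4668 of the 19817 genes. By step the calls were 0 of 6 for Pol I, 2 of 7 for snoRNPs (Nolc1 and Nop58), 4 of 15 for the small subunit (Tsr1, Bysl, Imp4 and Pno1), 6 of 17 for the large subunit (Gnl3, Rrs1, Grwd1, Mrto4, Nop2 and Nip7) and 0 of 4 for the multifunctional proteins. The differences between steps were not tested.

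Gnl3 had the largest estimate at 1 h. Its scaled signal was 3525 and 3593 in untreated cells, 2439 and 2774 with IFNβ, 21153 and 12304 at TCR 1 h without and with IFNβ, and 56507 and 54051 at TCR 6 h. The 1 h rise was 2.41 ± 0.26 log2 (adjusted p = 0.012). Rrs1, which helps bring the 5S particle into the large subunit, had 2480 and 2351 untreated, 1457 and 1476 with IFNβ, 12190 and 7604 at TCR 1 h, and 29256 and 32731 at TCR 6 h, with a 1 h rise of 2.40 ± 0.29 (adjusted p = 0.016). For both genes every array with TCR lay above every array without it, and the array with IFNβ was the lower of the pair at 1 h. Tsr1 rose by 2.33, Nolc1 by 2.29, Grwd1 by 2.17, Bysl by 1.90, Nop58 by 1.85 and Mrto4 by 1.85.

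These 1 h calls depended on single arrays. The count of 12 was 0 when either array of IFNβ alone, or either array of the TCR 1 h pair, was dropped, while the member median stayed between 0.85 and 1.07 in those fits. It was 2 with the scanner files' naming of the disputed pair (247 of 19817 genes higher) and 0 after normexp background correction (22 genes higher). With the untreated arrays as separate samples it was 26 (1253 genes higher). In the fit with 12 members 510 genes were higher. After normexp the TCR 1 h array stood apart, with a 5th percentile of 10.06 log2 against 6.515 to 7.018 on the others. Estimates of all 12 stayed above 1 log2 in every alternative tried, from 1.06 for Pno1 upward.

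Between 1 h and 6 h all 49 members rose further. The contrast of TCR 6 h against TCR 1 h passed for 49 of 49, higher, against 16.4% of genes, with a median of 2.36 log2 and a range from 1.01 for Imp4 (adjusted p = 0.044) to 3.46 for Nop16. Both arrays with TCR 1 h were on slide 1 and both with TCR 6 h on slide 2. With slide as a block 41 of 49 passed, against 1550 of 19816 genes called higher. The 1 h estimate was 27.2% of the 6 h estimate at the median, at least 50% for 4 members (Imp4, Tsr1, Rrs1 and Gnl3), and below 0 for Ubtf and Wdr12. Polr1a stood at 2.5% and Polr1e at 8.5%. On the TCR 6 h array alone, Polr1b lay 3.17 log2 above the TCR 1 h array.

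**Figure D2:**
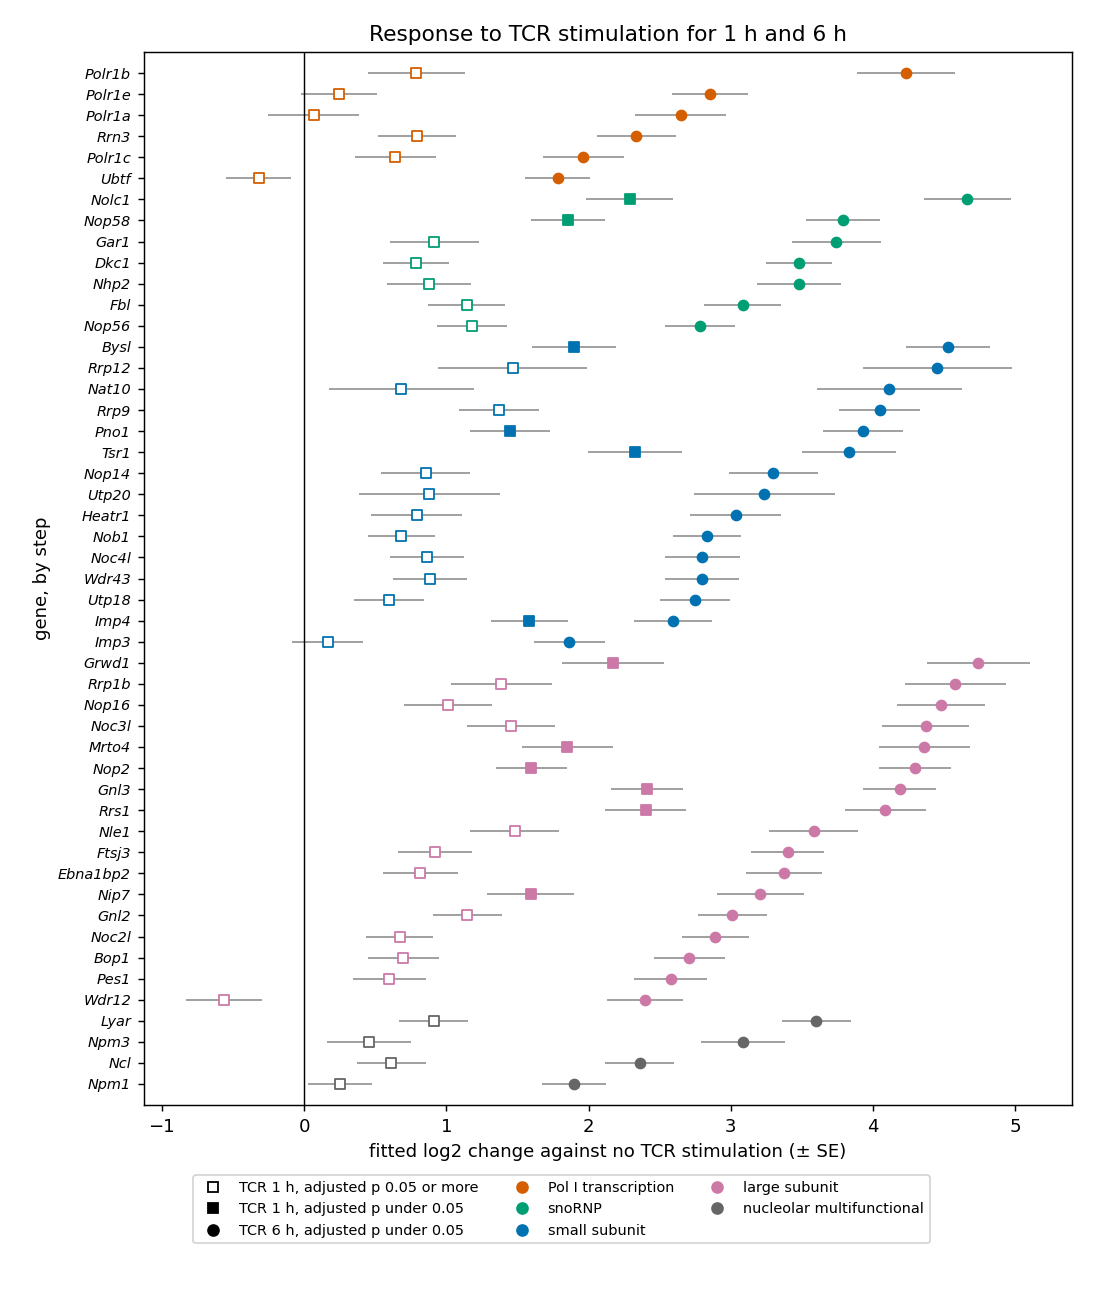
Points give each member's fitted log2 change against no TCR stimulation, with bars of 1 SE, as squares for TCR 1 h (filled where adjusted p is under 0.05) and circles for TCR 6 h, coloured by step. All 49 circles lie between 1.78 and 4.74, 12 squares are filled, and the squares of Ubtf and Wdr12 lie below 0.

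With IFNβ no member passed. The fitted term for IFNβ (4 arrays with, 3 samples without) had 0 of 49 members past the threshold in limma, against 13 of 19818 genes (0.0656%). An unadjusted p under 0.05 was reached by 3 members and by 1702 genes. The estimates leaned below 0 for 46 members, where 10170 of 19818 genes were below 0. The member median was -0.41 against -0.01 for all genes. The range was from -0.98 for Rrp12 (SE 0.44, adjusted p = 0.61) to 0.25 for Wdr43, and Nat10 stood at -0.94 (SE 0.43, adjusted p = 0.62). With the scanner files' naming of the disputed pair the median was -0.04, and without that pair it was -0.32. Other fits put it further below 0, at -0.59 with either array with TCR 6 h left out. With the untreated arrays as separate samples it was -0.44. On slide 1 alone it was -0.609 and on slide 2 alone -0.255, fits chosen after seeing the data. After normexp background correction, in which the TCR 1 h array of the fit stood apart, the member median was -0.14, above the -0.28 of all genes.

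The single arrays show where the lower values lay. IFNβ for 2 h was below untreated for 46 of 49 members (45.7% of all genes), with a median log2 difference of -0.60, and 8 members were at least 2-fold lower (5.25% of genes). After 7 h it was below for 44 (42.8% of genes), with a median of -0.56, and 9 were at least 2-fold lower (7.12% of genes). These differences share the untreated arrays. Rrp12 stood at -2.24 at 2 h and -2.15 at 7 h, Nat10 at -1.72 and -2.39, Utp20 at -1.30 and -1.68, Polr1b at -1.20 and -1.31, and Heatr1 at -1.17 and -1.14. Within the pair at TCR 1 h the array with IFNβ was below the one without for 45 members (56.9% of genes), with a median of -0.53 (all genes -0.10), and 4 were at least 2-fold lower (5.66% of genes): Grwd1, Nop16, Rrp1b and Gar1. Utp20 and Wdr43 lay on the other side, at 0.65 and 0.63. That direction turns with the scanner files' naming (0.53), and after normexp correction the median was 0.26. The TCR 1 h array of this pair stood apart from all others after that correction.

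At TCR 6 h the arrays with and without IFNβ were nearly equal for the members. The median log2 difference was 0.07 (all genes 0.00), 17 of 49 were below 0 (49.5% of genes), and 0 were at least 2-fold lower (3.27% of genes). The differences ran from -0.35 for Rrp1b to 0.23 for Noc4l, with an SD over members of 0.117 against 0.065 between the untreated arrays. These differences between single arrays are given without a test.

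**Figure D3:**
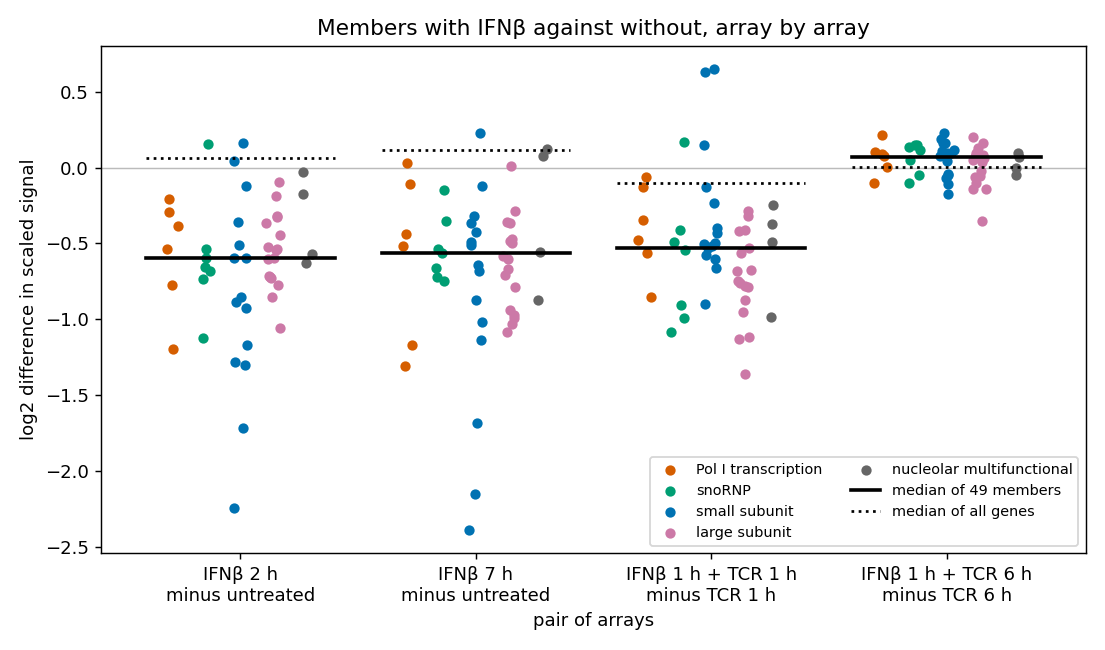
Each point is 1 member's log2 difference in scaled signal between an array with IFNβ and its counterpart without, in 4 pairs of arrays, coloured by step, with solid lines at the median of the 49 members and dotted lines at that of all genes. Member medians are -0.60, -0.56, -0.53 and 0.07, and the spread is narrowest in the pair at TCR 6 h.

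Levels of other cells' markers differed on the same arrays. The summed scaled signal of 9 of 10 B cell markers (Pax5 not measured) was 13668 and 13305 in untreated cells, 42054 and 35783 with IFNβ for 2 h and 7 h, 11669 and 10510 at TCR 1 h, and 4660 and 5420 at TCR 6 h. For 9 of 10 markers of class II presenting cells (Siglech not measured) it was 27784 and 27479, then 61790 and 40470, 28919 and 20145, and 14382 and 17226. The sum of NK cell markers (10 of 10) was 41062 and 41429 untreated, 25054 and 22759 with IFNβ, 59138 and 65422 at TCR 1 h, and 70915 and 76722 at TCR 6 h. Its lower sum with IFNβ came from Nkg7 and Il2rb, and the other 8 genes were higher on both arrays with IFNβ alone than on both untreated arrays. The median fitted change of its genes at TCR 6 h was -0.93, with 3 lower and 1 higher. The sums of the CD8 T cell markers were 694163 and 686575 untreated, 930490 and 953288 with IFNβ, 1041712 and 760026 at TCR 1 h, and 598742 and 608323 at TCR 6 h. Of these sums Cd5 gave 43194 and 35527 untreated, and 255243 and 232004 at TCR 6 h. Cd8a went from 30588 and 30820 untreated to 6623 and 12379 at TCR 6 h, and Cd8b1 from 215518 and 214913 to 78299 and 72202. The median fitted change of the CD8 list at TCR 6 h was -0.71, with 3 lower and 1 higher. Myeloid markers (9 of 10) summed to 5085 and 5188 untreated, 10162 and 10589 with IFNβ, 5032 and 6649 at TCR 1 h, and 3216 and 4259 at TCR 6 h. Mpeg1 gave 1028 and 1022 of the myeloid sums untreated and 5193 and 8027 with IFNβ. The median fitted IFNβ change of the myeloid list was -0.49. CD4 T cell markers (10 of 10) summed to 31933 and 30415 untreated, 29150 and 29513 with IFNβ, 59538 and 124032 at TCR 1 h, and 79095 and 98932 at TCR 6 h. Icos gave 45256 and 110746 of these sums at TCR 1 h, and 65367 and 85513 at TCR 6 h. Cd4 itself ran from 91.9 to 150 over the arrays. The median fitted change of the CD4 list was 0.24 at TCR 1 h and 0.28 at TCR 6 h. No measured marker of these lists was at 0. The part of these cells in the members' differences with IFNβ and with TCR was not tested.

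The difference over 6 h was larger between 2 arrays with IFNβ than between arrays without it. The arrays with TCR 6 h were nearly equal (member median difference 0.07). IFNβ 7 h lay below untreated (median -0.56), so the larger difference lay mostly in the lower starting array. The labels give IFNβ for 1 h with TCR 6 h, but for 7 h alone. TCR 6 h minus untreated had a member median of 2.99 log2, and IFNβ with TCR 6 h minus IFNβ 7 h had 3.58, the latter larger for 45 of 49 members. Over members these differences, which share no array, had a Pearson r of 0.87 and a Spearman rho of 0.87 (n = 49 genes, which are not independent replicates), against a Pearson r of 0.83 over 19735 genes. Rrp12 stood at 3.13 and 5.32, Nat10 at 2.99 and 5.21, Polr1b at 3.46 and 4.84, and Npm1 at 1.88 and 1.88. The interaction term for TCR 6 h rests on these same arrays and IFNβ 2 h. Over all genes it was below 0 for 11171 of 19779. The interaction of IFNβ with TCR 6 h was above 0 for all 49 members with a median of 0.60 (all genes -0.11), and 0 of 49 members and 0% of all genes passed in limma (1 residual degree of freedom). An unadjusted p under 0.05 was reached by 3 members and by 1634 of 19779 genes. The largest was Rrp12 at 2.24 ± 0.46 (adjusted p = 0.51). The interaction with TCR 1 h had a median of 0.04, with 0 of 49 members and 0% of genes past the threshold, and 3 members and 1501 of 19746 genes with an unadjusted p under 0.05. With the scanner files' naming of the disputed pair this median was 1.21, 19 members had an unadjusted p under 0.05, and 0 members and 66 genes passed.

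**Figure D4:**
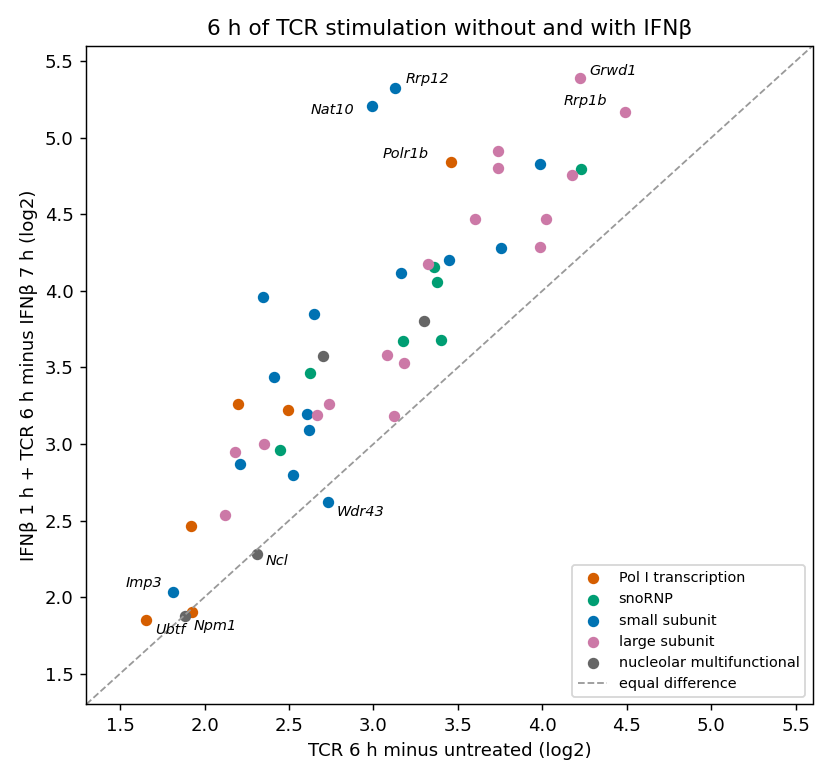
Each point is 1 member, with TCR 6 h minus untreated on the x axis and IFNβ 1 h with TCR 6 h minus IFNβ 7 h on the y axis (log2 differences between arrays), coloured by step, and a dashed line of equal differences. Of the 49 points 45 lie above the line, with Rrp12 and Nat10 farthest from it.

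Other genes of the pathway were read in the same fit. In a list of 93 further biogenesis factors, all measured, 86 rose after 6 h of TCR stimulation and 0 fell (22.3% of all genes rose), with a median of 2.46 log2. By step 7 of 10 Pol I factors, 8 of 8 snoRNP factors, 36 of 38 small subunit and 35 of 37 large subunit factors rose. Those that did not pass were Znrd1, Taf1b, Ttf1, Ngdn, Ddx52, Nsa2 and Sbds. The largest rises were 4.15 ± 0.35 for Rrp15, 4.01 ± 0.32 for Pwp2, 3.92 ± 0.22 for Naf1, an assembly factor of box H/ACA particles, and 3.87 ± 0.32 for Rpf2, whose spot on the IFNβ 2 h array was an outlier and was left out of its fit. The smallest were -0.15 for Taf1b (adjusted p = 0.63), a subunit of the Pol I selectivity factor, and -0.13 for Ttf1 (adjusted p = 0.69), the Pol I termination factor. Taf1b had 2283 and 2281 in untreated cells and 2093 and 2521 at TCR 6 h, and Ttf1 had 1537 and 1527, and 1404 and 1571, so neither stood apart from untreated. At 1 h 7 of the 93 rose (Ppan, Nifk, Mphosph10, Ltv1, Utp15, Urb2 and Wdr75), against 2.57% of all genes, with a median of 0.63. With IFNβ 0 passed, against 0.0656% of all genes, 2 with an unadjusted p under 0.05, with a median of -0.23.

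Myc itself, whose protein activates biogenesis genes, had 2227 and 2351 in untreated cells, 10318 and 7534 with IFNβ for 2 h and 7 h, 180895 and 113955 at TCR 1 h, and 132394 and 146195 at TCR 6 h. It rose by 4.78 ± 0.59 log2 at 1 h (adjusted p = 0.017) and 4.73 ± 0.59 at 6 h (adjusted p = 0.0015), and its level on both arrays with IFNβ alone was above untreated where most members were below. Its partner Max had 28448 and 28349 untreated, 49140 and 63493 with IFNβ, 21159 and 53554 at TCR 1 h, and 47155 and 52172 at TCR 6 h, and did not pass at either time (adjusted p = 0.69 and 0.50). After 6 h of TCR stimulation 4419 of 19817 genes passed as higher and 4520 as lower. Of 10 genes of MYC and its partners 3 rose (Myc, Mnt and Mlx) and 4 fell at 6 h. The ones that fell were Mxd1, Mxd3, Mxd4 and Mxi1, and Mxd4 went from 10324 and 10258 untreated to 123 and 177 at TCR 6 h (-5.10 ± 0.53, adjusted p = 0.00082).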

How the data were processed

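Per the file headers, each array's deposited file came from Agilent Feature Extraction 10.7.3.1 and holds linear intensity after background subtraction, with coordinates in mm9 (9.5.3.1 is the version in the submitters' processing notes). The deposited value table also holds intensity. Each of its columns equalled 1 scanner file times 1 factor (1.2088 to 1.8567), so its scale was linear and not centred, and single-colour values have no direction,, with a floor of 15. Its column medians were 89.57, 102.4, 92.62, 95.78, 92.25, 100.6, 80.68 and 73.76. The log2 signal was scaled to each array's 75th percentile, outlier spots were left out, spots of a probe were averaged, and probes well above background on at least 2 arrays were kept. Names came through the accession for 26690 of 41174 probes (RefSeq, GRCm38.p6), and the brightest probe stood for a gene. Fits used limma 3.58.1 in R 4.3.3 with Benjamini-Hochberg adjustment over all genes and 3 residual degrees of freedom, and were tested on simulated data. The number of arrays limits the precision, and no source says which arrays came from separate mice. With 1 array per treated condition, p-values measure departures from the additive terms and not the spread between replicates. These departures include the difference between IFNβ for 2 h and 7 h, which share 1 term with IFNβ for 1 h. Members and lists were chosen with earlier results of these data known. In each step the members with the 2 largest and the smallest 6 h change, the 2 largest at 1 h, the 2 lowest with IFNβ and 8 fixed genes are given by array. Alternatives changed scaling, background, filter, probe rule, slide, untreated arrays, naming and arrays left out. Figures used matplotlib in Python.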

Additional observations from a re-analysis of the deposited data

How the results depend on the processing

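The 49 calls at TCR 6 h were 49 in all 19 alternatives. The count for TCR 6 h against TCR 1 h ranged from 40 (without the array for IFNβ with TCR 6 h) to 49, with 41 under slide as a block, and 0 members passed for IFNβ in every alternative. The count of 12 at TCR 1 h stood beside 510 of 19817 genes called higher. With normexp background correction it was 0 (22 genes higher), and with the scanner files' naming 2 (247 genes). With probes well above background on all 8 arrays it was 20 (830 of 15670 genes). With the untreated arrays as separate samples it was 26 (1253 of 19817 genes). On slide 1 alone, which was chosen after seeing the data, it was 5 (339 of 19816 genes). With 1 array left out it ranged from 0 to 12. The interaction with TCR 1 h had 17 members past the threshold after normexp correction, where the TCR 1 h array stood apart (a 5th percentile of 10.06 log2, against 6.515 to 7.018 on the others) and 10877 genes passed. The median of IFNβ with TCR 1 h minus TCR 1 h, -0.529, was -0.594 with array median scaling, -0.450 with quantile normalization, 0.259 with normexp and 0.529 with the scanner files' naming, for which the 2 arrays change places. The median of IFNβ with TCR 6 h minus TCR 6 h, 0.072, was 0.195 with array median scaling, 0.022 with quantile normalization and 0.040 with the mean of all probes. Causes of the other changes were not tested. No paired analysis was possible because the groups compared share fewer than 2 replicate numbers in the labels. Interaction fits without most single arrays could not be made, since no residual degree of freedom or no term was left. With 1 array in an arm, that array was assumed to vary like the others. Signal over background was no limit for the members, which were well above background on all arrays.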
